A study of Homo sapiens with 9 samples.

Results

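The genes described here are 33 named genes of the amino acid branch of the integrated stress response, the programme driven by the transcription factor ATF4. They were chosen by name, as ATF4 itself, its partner factors and its well known target genes, and the rule uses no measured value, though the list was drawn up with earlier results of these data known. Of the 33 genes, 32 had a row among the 15354 rows of the expression table, and 29 reached at least 1 CPM (the reads of a gene scaled to the size of its library) in at least 3 of the 9 libraries and were tested among 13893 genes. NUPR1, a stress-induced chromatin cofactor, was not analysed here. The 3 members that did not reach this level were VLDLR, a lipoprotein receptor, at 1 to 12 reads per library, CBS, the first enzyme of the transsulphuration route, at 0 to 4 reads, and ALDH1L2, a mitochondrial folate enzyme, at 6 to 24 reads.

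RNA was sequenced from HCT116, an established human colorectal carcinoma line, at 36 h after reverse transfection with 25 nM of a siRNA. The libraries formed 3 groups of 3. The control group received a commercial non-targeting siRNA, and the others, labelled siRNA A and siRNA B, each received a siRNA to SNHG5, a snoRNA host long non-coding RNA. All groups were the same line in serum-containing McCoy's medium with the same transfection reagent, so each comparison is of siRNA against siRNA, with no untransfected cells. The replicates were described as biological replicates, and no label gave a culture or a day, so p-values measure the spread between these libraries.

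ATF4 is controlled mainly at translation. When amino acids run short, or under other stresses, the kinases GCN2, PERK, PKR and HRI phosphorylate the initiation factor eIF2, which lowers protein synthesis in general but lets ribosomes reach the ATF4 reading frame. ATF4 then binds C/EBP-ATF response elements, usually as a dimer with a C/EBP factor, and switches on amino acid transporters, synthesis enzymes and tRNA synthetases as well as the feedback and death regulators DDIT3 and PPP1R15A. The mRNA levels measured here do not report ATF4 protein or eIF2 phosphorylation.

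The core of that response element, TGATGNAA, was looked for on both strands of the promoters of the members, 250 bases before to 50 bases after the start listed first for each gene by RefSeq (GRCh38.p14). Promoters were found for 27 of the 33 members, and 4 of these windows, or 14.8%, held the motif, against 1.65% of 10225 promoters of tested genes. The 4 were ASNS (at -68 from the start), CHAC1 (at -209, other strand), SLC3A2 (at 37, other strand) and SLC7A1 (at 7). Over all starts listed for a gene, 7 of the 27 members, or 25.9%, and 2.69% of tested genes held it. A match is a match of letters, not a site shown to be bound, and no match says only that these letters are absent from this window. The promoters of ASNS, the asparagine synthetase gene and a textbook case of this regulation, and of CHAC1 are shown for their motif, in capitals. They lie at chr7:97872359-97872658 (minus strand) and chr15:40953221-40953520 (plus strand), and are printed 5′ to 3′ on the strand of the gene.
ASNS: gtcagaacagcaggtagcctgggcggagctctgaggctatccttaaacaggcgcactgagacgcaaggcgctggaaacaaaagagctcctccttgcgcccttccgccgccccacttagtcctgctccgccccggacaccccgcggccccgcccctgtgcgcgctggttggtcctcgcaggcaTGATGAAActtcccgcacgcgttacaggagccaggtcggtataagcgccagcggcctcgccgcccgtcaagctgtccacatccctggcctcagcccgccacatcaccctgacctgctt
CHAC1: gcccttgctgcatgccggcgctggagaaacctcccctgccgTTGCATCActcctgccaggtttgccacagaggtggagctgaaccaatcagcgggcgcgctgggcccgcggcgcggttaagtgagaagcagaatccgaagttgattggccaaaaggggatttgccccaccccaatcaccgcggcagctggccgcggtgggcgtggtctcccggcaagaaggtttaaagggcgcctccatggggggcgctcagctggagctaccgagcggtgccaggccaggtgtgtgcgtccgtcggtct

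The promoters of ATF4, of DDIT3 (the member with the largest rise with siRNA B), of PHGDH (the largest fall with siRNA B) and of SLC1A4 (the largest fall with siRNA A) are shown because the comparisons below turn on these genes. None of the 4 windows held the motif. SLC7A11, the member with the largest rise with siRNA A, was matched to no promoter. The windows are chr22:39520309-39520608 (ATF4, plus strand), chr12:57520465-57520764 (DDIT3, minus strand), chr1:119711684-119711983 (PHGDH, plus strand) and chr2:64988229-64988528 (SLC1A4, plus strand), again on GRCh38.p14.
ATF4: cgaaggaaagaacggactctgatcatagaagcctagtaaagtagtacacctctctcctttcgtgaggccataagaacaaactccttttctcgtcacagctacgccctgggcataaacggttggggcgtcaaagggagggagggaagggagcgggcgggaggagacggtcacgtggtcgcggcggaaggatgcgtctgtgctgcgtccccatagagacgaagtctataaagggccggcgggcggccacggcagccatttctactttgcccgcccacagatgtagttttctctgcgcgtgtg
DDIT3: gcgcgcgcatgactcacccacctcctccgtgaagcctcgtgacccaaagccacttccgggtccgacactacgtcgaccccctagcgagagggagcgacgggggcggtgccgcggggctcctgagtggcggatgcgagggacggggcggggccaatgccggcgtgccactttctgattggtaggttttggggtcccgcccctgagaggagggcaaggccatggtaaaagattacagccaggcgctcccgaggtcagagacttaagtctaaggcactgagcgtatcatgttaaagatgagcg
PHGDH: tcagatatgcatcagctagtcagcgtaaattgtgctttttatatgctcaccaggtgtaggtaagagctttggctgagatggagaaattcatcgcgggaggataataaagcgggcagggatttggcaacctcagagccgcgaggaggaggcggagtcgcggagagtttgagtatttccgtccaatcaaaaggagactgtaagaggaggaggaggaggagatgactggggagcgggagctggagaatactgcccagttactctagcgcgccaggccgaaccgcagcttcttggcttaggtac
SLC1A4: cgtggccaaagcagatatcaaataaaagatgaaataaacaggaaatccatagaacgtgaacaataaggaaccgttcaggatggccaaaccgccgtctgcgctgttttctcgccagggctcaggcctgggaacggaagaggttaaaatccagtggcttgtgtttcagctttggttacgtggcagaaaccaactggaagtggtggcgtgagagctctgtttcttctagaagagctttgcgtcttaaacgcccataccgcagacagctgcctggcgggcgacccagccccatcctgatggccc

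Some facts of the whole series bear on all values. Library totals ran from 15566530 to 23277549 reads, so 1 CPM stood for 15.6 to 23.3 reads and 3 reads, taken as the floor, for 0.129 to 0.193 CPM. SNHG5, the target of both siRNAs, was not lower in the libraries labelled siRNA A and siRNA B: it was at 35.7, 26.3 and 28.6 CPM in control, 63.9, 50.0 and 61.6 CPM in siRNA A and 47.8, 47.7 and 45.2 CPM in siRNA B. The scaled log2 fold changes were 1.29 (adjusted p = 1.86e-05) and 0.83 (adjusted p = 0.00059), so below siRNA A and siRNA B name libraries by their labels, and each direction rests on those labels. All 7 epithelial markers were expressed, with summed levels of 2136 to 2241 CPM in control, 2834 to 3489 CPM in siRNA A and 2411 to 2481 CPM in siRNA B. KRT8, KRT18 and KRT19 rose with siRNA A (1.06, 1.015 and 1.09) while EPCAM (-0.55) and CDX2 (-0.52) fell, so the sum does not stand for each marker. Of 9 markers of blood, vessel, stromal and liver cells, 3 had a row, summing to 19.2 to 20.6 CPM in control, 10.7 to 13.4 CPM in siRNA A and 9.71 to 10.6 CPM in siRNA B, and PTPRC, CD3E, PECAM1, VWF, COL1A2 and DCN had none. Most of this sum was COL1A1, at 18.3 to 19.5 CPM in control, which fell with both siRNAs (-0.46 and -0.79). CD68, a low gene, rose with siRNA A (0.43), though not with library totals alone (0.25), and ALB had 0 to 3 reads per library. The part of these marker levels in the results below was not tested. In bulk RNA, more cells of a kind and more RNA per cell cannot be told apart.

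Levels below are scaled CPM: the deposited CPM divided by a TMM factor (trimmed mean of M values). Such scaling assumes that most genes do not differ between libraries. Yet after scaling, limma still called 51.4% of the 13893 tested genes different for siRNA A, and 34% for siRNA B. The assumption is thus strained, most of all for siRNA A. Fold changes and their standard errors (SE) are on the log2(scaled CPM + 1) scale, which understates changes of low genes, and adjusted p-values come from limma with Benjamini-Hochberg adjustment over all 13893 genes. "Rose" and "fell" are used for an adjusted p under 0.05. The TMM factors were 1.1 to 1.19 in control, 0.85 to 0.915 in siRNA A and 0.948 to 1.03 in siRNA B. Without them, that is with library totals alone, the median log2 fold change of all genes moved from -0.02 to -0.34 for siRNA A and from 0.0043 to -0.18 for siRNA B.

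With siRNA A against control, 16 of the 29 tested members rose and 1 fell, where 23.9% of all tested genes rose, 27.6% fell and 51.4% did either. The median log2 fold change of the members was 0.36, against -0.02 for all genes. With siRNA B against control, 11 members rose and 3 fell, where 15.6% of all genes rose, 18.3% fell and 34% did either, and the median of the members was 0.26, against 0.0043 for all genes. The 3 libraries of the siRNA group did not overlap the 3 of control for 17 members with siRNA A and 14 with siRNA B, shares near those of all tested genes, 59.5% and 47.6%. With library totals alone, the counts were 10 higher and 6 lower for siRNA A, where 9.05% of all genes were higher and 47% lower, and 9 higher and 5 lower for siRNA B, where 6.9% were higher and 29.7% lower. Both comparisons use the same 3 control libraries, so their values are set side by side and are not independent of each other.

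**Figure D1:**
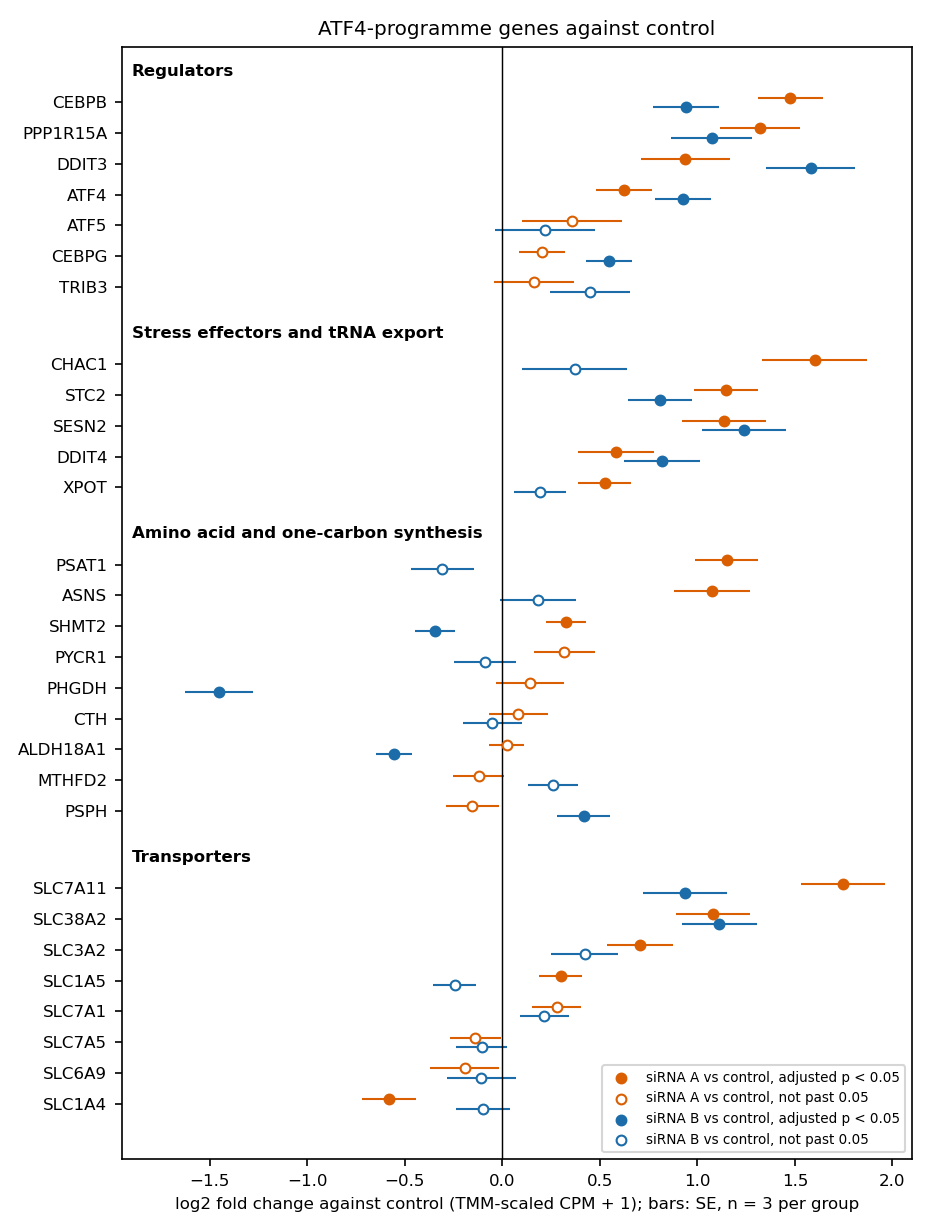
Log2 fold change of the 29 tested genes against control (x axis, scaled CPM + 1) for siRNA A (orange) and siRNA B (blue), grouped by role, with the SE as bars, n = 3 libraries a group, and filled points for adjusted p under 0.05. The regulators and stress effectors all lie to the right of 0 with both siRNAs (with library totals alone TRIB3, ATF5 and CEBPG for siRNA A and XPOT for siRNA B lie below 0), while the synthesis enzymes lie on both sides, from 1.15 for PSAT1 with siRNA A to -1.45 for PHGDH with siRNA B.

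Among the 7 tested regulators, 4 rose and none fell with siRNA A, and 5 rose and none fell with siRNA B (3 and 4 with library totals alone). Counts in this and the other roles stand beside the same shares of all tested genes. These were 23.9% rising and 27.6% falling with siRNA A, and 15.6% and 18.3% with siRNA B (9.05% and 47%, and 6.9% and 29.7%, with library totals alone). ATF4 mRNA, from chr22:39915700-39918688 on GRCh37, was at 195.0, 154 and 174 scaled CPM in control replicates 1, 2 and 3, at 306, 257 and 244 in siRNA A and at 379.9, 269 and 353 in siRNA B. Every siRNA library thus lay above every control library. The log2 fold change was 0.62 (SE 0.145, adjusted p = 0.00386) for siRNA A, a ratio of means of 1.54, and 0.93 (SE 0.145, adjusted p = 0.000625) for siRNA B, a ratio of 1.92. With library totals alone the siRNA A value was 0.26 and missed the threshold (adjusted p = 0.176).

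DDIT3 encodes CHOP, the C/EBP family factor that links a lasting stress response to cell death, and it had the largest rise of the members with siRNA B. It was at 36.2, 16.9 and 28.9 scaled CPM in control, 61.0, 47.4 and 45.6 in siRNA A and 91.2, 67.5 and 83.3 in siRNA B. The 3 groups did not overlap, and ran upwards from control through siRNA A to siRNA B. DDIT3 rose by 0.94 on the log2 scale (SE 0.227, adjusted p = 0.00487) with siRNA A and 1.58 (SE 0.227, adjusted p = 0.000359) with siRNA B. DDIT3 (chr12:57910371-57915520, minus strand, GRCh37) shares exon positions with MARS1 on the other strand, and since the use of strand in the counting is not given in the sources used here, reads of the pair cannot be told apart there. MARS1, the methionyl-tRNA synthetase gene, also rose, by 0.70 and 0.35.

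CEBPB, a dimer partner of ATF4, was at 28.0, 19.7 and 20.8 scaled CPM in control, 71.3, 73.3 and 51.4 in siRNA A and 49.8, 38.2 and 45.5 in siRNA B. The groups again did not overlap, here with siRNA A highest. The change was 1.48 (SE 0.167, adjusted p = 3.9e-05) with siRNA A and 0.94 (SE 0.167, adjusted p = 0.00136) with siRNA B. CEBPB shares exon positions with its antisense gene. PPP1R15A encodes GADD34, the subunit that brings a phosphatase to eIF2 and so ends the response. It was at 62.4, 35.6 and 58.7 scaled CPM in control, 139.9, 152 and 99.2 in siRNA A and 122.5, 102 and 101 in siRNA B. All siRNA libraries were above all control libraries, and the log2 fold change was 1.32 (SE 0.206, adjusted p = 0.000308) with siRNA A and 1.07 (SE 0.206, adjusted p = 0.00218) with siRNA B.

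The other 3 tested regulators moved less. CEBPG, another C/EBP partner of ATF4, rose with siRNA B (log2 fold change 0.545, SE 0.118, adjusted p = 0.00435), and its value with siRNA A was 0.20 (adjusted p = 0.167). With library totals alone the siRNA B value was 0.34 and missed the threshold (adjusted p = 0.0774), and without siRNA A replicate 2 the siRNA A value passed it (0.31, adjusted p = 0.0423). TRIB3, a pseudokinase that is a sensitive ATF4 and CHOP target and binds ATF4 in feedback, did not pass the test with either siRNA, at 0.16 (95% interval -0.28 to 0.61) and 0.45 (0.004 to 0.89), and passed it with siRNA B without siRNA B replicate 2 (0.66, adjusted p = 0.021). ATF5, a factor translated under stress like ATF4, was at 0.36 and 0.22 and also did not pass. With the replicate numbers as a block, which pair the control and siRNA A libraries, the ATF5 value for siRNA A passed (adjusted p = 0.0084). The block also called TRIB3 higher with siRNA B (0.45, adjusted p = 0.0049) and lower in siRNA A than in siRNA B (-0.285, adjusted p = 0.0434).

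**Figure D2:**
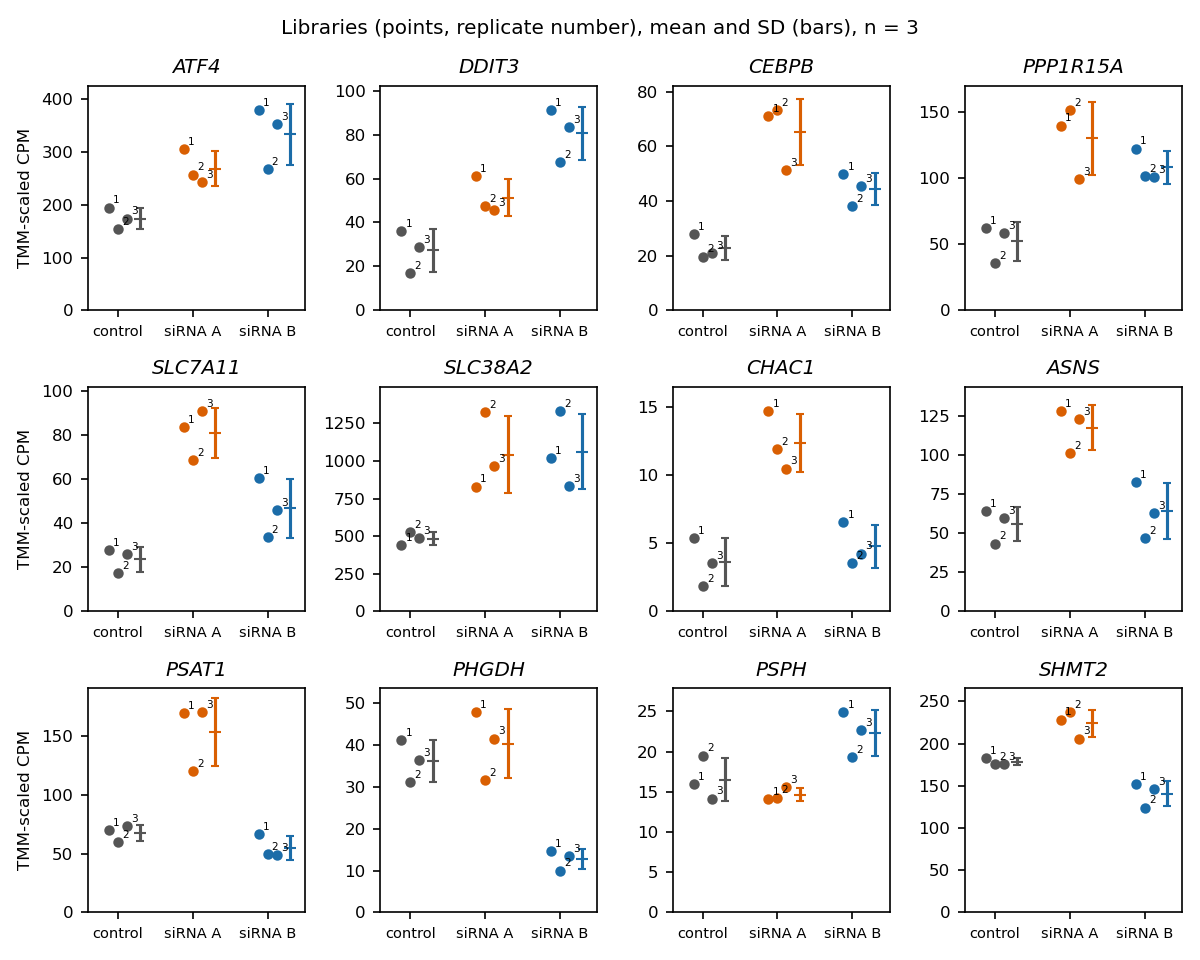
Scaled CPM (y axis, from 0) of 12 genes in each library, with points marked by replicate number and the mean and SD (n = 3) beside them. ATF4, DDIT3, CEBPB, PPP1R15A, SLC7A11 and SLC38A2 are higher in all siRNA libraries than in control, CHAC1, ASNS and PSAT1 are higher in siRNA A libraries than in all others, and PHGDH is lower in siRNA B libraries than in all others.

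All 5 tested stress effectors rose with siRNA A and 3 of them rose with siRNA B (3 and 3 with library totals alone). SESN2 encodes sestrin 2, a leucine sensor that restrains the growth kinase mTORC1. It was at 30.6, 17.2 and 24.9 scaled CPM in control, 65.2, 47.5 and 48.1 in siRNA A and 73.2, 45.8 and 55.2 in siRNA B. Both siRNA groups lay above control and overlapped each other, with log2 fold changes of 1.135 for siRNA A (SE 0.215, adjusted p = 0.00104) and 1.24 for siRNA B (SE 0.215, adjusted p = 0.00116). STC2, a secreted glycoprotein induced by several stresses, was at 57.2, 40.8 and 53.5 scaled CPM in control, 131, 95.8 and 112 in siRNA A and 105, 73.7 and 89.0 in siRNA B. It too showed no overlap with control, and rose by 1.15 (SE 0.163, adjusted p = 0.000169) and 0.81 (SE 0.163, adjusted p = 0.00289).

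DDIT4 encodes REDD1, another brake on mTORC1. It was at 22.3, 13.3 and 19.2 scaled CPM in control, 29.9, 32.1 and 20.9 in siRNA A and 32.3, 36.4 and 28.4 in siRNA B. The siRNA B libraries were above control, while siRNA A replicate 3 lay within the control range. The log2 fold change was 0.58 (SE 0.195, adjusted p = 0.0262) with siRNA A and 0.82 (SE 0.195, adjusted p = 0.0075) with siRNA B. The siRNA A call was lost without any 1 of control replicate 2, siRNA A replicate 1 or siRNA A replicate 2, at 0.37 to 0.52 (adjusted p = 0.0809 to 0.121), with no filter on low genes, at 0.58 (adjusted p = 0.0616), and with library totals alone, at 0.23 (adjusted p = 0.292).

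CHAC1 encodes an enzyme that breaks down glutathione and is a target of ATF4 and CHOP. It was a low gene, at 43 to 135 reads in control, 158 to 277 in siRNA A and 55 to 147 in siRNA B. Its scaled CPM were 5.38, 1.87 and 3.58 in control, 14.7, 11.9 and 10.5 in siRNA A and 6.58, 3.55 and 4.25 in siRNA B. The siRNA A libraries stood above the other 6, and the siRNA B libraries overlapped control. The log2 fold change was 1.60 (SE 0.269, adjusted p = 0.000492) with siRNA A and 0.37 (SE 0.269, adjusted p = 0.316) with siRNA B. XPOT, which exports tRNA from the nucleus, rose with siRNA A (0.52, adjusted p = 0.00686) and was at 0.19 (adjusted p = 0.295) with siRNA B. With library totals alone the XPOT value for siRNA A was 0.16 (adjusted p = 0.344).

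The synthesis enzymes were the role with the most differences between the siRNAs. Of 9 tested, 3 rose and none fell with siRNA A, and 1 rose and 3 fell with siRNA B (2 higher and 3 lower, and 0 higher and 4 lower, with library totals alone). The serine pathway enzymes went different ways. PHGDH, the first and committed enzyme of serine synthesis from glucose (chr1:120191034-120286841 on GRCh37), was at 41.2, 31.1 and 36.4 scaled CPM in control, 47.9, 31.7 and 41.6 in siRNA A and 14.7, 10.0 and 13.4 in siRNA B. The siRNA B libraries were far below the other 6, at a ratio of means to control of 0.35, and the siRNA A libraries overlapped control. The log2 fold change was 0.14 (SE 0.175, adjusted p = 0.524) with siRNA A and -1.45 (SE 0.175, adjusted p = 0.000114) with siRNA B.

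PSAT1, the second enzyme of the serine route (chr9:80912041-80945009), was at 70.3, 60.1 and 73.1 scaled CPM in control, 169.6, 119.9 and 170.2 in siRNA A and 66.8, 49.3 and 48.8 in siRNA B. Here the siRNA A libraries stood above the rest, while those of siRNA B overlapped control. It rose by 1.15 (SE 0.161, adjusted p = 0.000148) with siRNA A and was at -0.31 (SE 0.161, adjusted p = 0.161) with siRNA B. PSPH, the third enzyme, was at 15.9, 19.5 and 14.2 scaled CPM in control, 14.1, 14.3 and 15.5 in siRNA A and 24.9, 19.3 and 22.7 in siRNA B. Its siRNA B replicate 2 lay just under control replicate 2, so the groups overlapped. PSPH was at -0.15 (SE 0.137, adjusted p = 0.369) with siRNA A and rose by 0.42 (SE 0.137, adjusted p = 0.0353) with siRNA B. The PSPH call was lost without any 1 of control replicates 1 and 3 or siRNA B replicates 1 and 3, at 0.32 to 0.40 (adjusted p = 0.084 to 0.142), with no filter on low genes, at 0.41 (adjusted p = 0.0543), and with library totals alone, at 0.21 (adjusted p = 0.332). Library totals alone also called PSPH lower with siRNA A (-0.50, adjusted p = 0.0188).

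SHMT2, the mitochondrial enzyme that splits serine into glycine and a one-carbon unit, was at 183, 176 and 176 scaled CPM in control, 228, 237 and 206 in siRNA A and 152, 124 and 146 in siRNA B. The 3 groups did not overlap, with control between the siRNAs. SHMT2 rose by 0.33 (SE 0.103, adjusted p = 0.0199) with siRNA A and fell, at -0.34 (SE 0.103, adjusted p = 0.0227), with siRNA B. Both calls lay near the threshold: without any 1 of control replicates 2 and 3 or siRNA A replicates 1 and 2 the rise missed the threshold (0.28 to 0.32, adjusted p = 0.0528 to 0.0632), without any 1 of control replicates 1 and 3 or siRNA B replicate 2 the fall did (-0.35 to -0.26, adjusted p = 0.054 to 0.0688), and with library totals alone the siRNA A value was -0.04. MTHFD2, the next enzyme of the mitochondrial folate route, was at 266, 211 and 244 scaled CPM in control, 235, 195 and 231 in siRNA A and 321, 247 and 296 in siRNA B. Both siRNA groups overlapped control. Neither change passed, at -0.12 (adjusted p = 0.456) and 0.26 (adjusted p = 0.145), and the siRNA B value passed without siRNA B replicate 2 (0.37, adjusted p = 0.0488). SHMT2 and MTHFD2 share exon positions with genes on the other strand.

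ASNS, which makes asparagine and carries the promoter motif shown above, was at 64.3, 43.3 and 59.6 scaled CPM in control, 128, 101 and 123 in siRNA A and 82.5, 47.1 and 62.8 in siRNA B. All siRNA A libraries exceeded all others, and siRNA B overlapped control. The log2 fold change was 1.075 (SE 0.195, adjusted p = 0.000817) with siRNA A and 0.18 (SE 0.195, adjusted p = 0.506) with siRNA B. ALDH18A1, which starts proline synthesis from glutamate, was at 123, 136 and 122 scaled CPM in control, 121, 132 and 134 in siRNA A and 87.1, 88.4 and 82.5 in siRNA B. It was the counterpart of ASNS: siRNA A overlapped control and siRNA B lay below, at 0.02 (SE 0.091, adjusted p = 0.855) and -0.56 (SE 0.091, adjusted p = 0.000798). With library totals alone ALDH18A1 was called lower with siRNA A as well (-0.34, adjusted p = 0.0169).

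PYCR1, the last enzyme of the proline route, did not pass with either siRNA, at 0.32 (adjusted p = 0.11) and -0.09 (adjusted p = 0.695). With the replicate block its siRNA A value passed (adjusted p = 0.0348), as it did without siRNA B replicate 2 (0.32, adjusted p = 0.0431). CTH, which releases cysteine from cystathionine, was a low gene, at 6.7 to 10.2 scaled CPM over all libraries, and its values of 0.08 and -0.05 were within the spread between libraries.

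Of the 8 tested transporters, 4 rose and 1 fell with siRNA A, and 2 rose and none fell with siRNA B (2 higher and 3 lower, and 2 higher and 1 lower, with library totals alone). SLC7A11, the cystine importer xCT (chr4:139085251-139163503 on GRCh37), had the largest rise of the members with siRNA A. It was at 27.9, 17.3 and 25.9 scaled CPM in control, 83.5, 68.6 and 90.9 in siRNA A and 60.6, 33.8 and 45.9 in siRNA B. The groups were separate, in the order control, siRNA B, siRNA A. The log2 fold change was 1.75 (SE 0.214, adjusted p = 6.4e-05) with siRNA A, a ratio of means of 3.41, and 0.94 (SE 0.214, adjusted p = 0.00574) with siRNA B, a ratio of 1.97. SLC7A11 shares exon positions with an antisense gene.

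SLC38A2 (SNAT2), a neutral amino acid importer that cells raise when starved of amino acids, was at 438.7, 525 and 484.5 scaled CPM in control, 829.6, 1324 and 965 in siRNA A and 1021, 1331 and 835 in siRNA B. Both siRNA groups lay above control, and the log2 fold change was 1.08 (SE 0.191, adjusted p = 0.000685) with siRNA A and 1.11 (SE 0.191, adjusted p = 0.00108) with siRNA B. In both siRNA groups replicate 2 was highest, where for most members replicate 2 was lowest. SLC1A5 (ASCT2), the glutamine exchanger, was at 219, 228 and 218 scaled CPM in control, 288, 254 and 277 in siRNA A and 207, 159 and 197 in siRNA B. Control lay between the siRNAs with no overlap. SLC1A5 rose by 0.30 (SE 0.111, adjusted p = 0.0413) with siRNA A and was at -0.24 (SE 0.111, adjusted p = 0.11) with siRNA B. The siRNA A call was lost without any 1 of 6 single libraries, all 3 of control, siRNA A replicates 1 and 3 and siRNA B replicate 3, at 0.26 to 0.31 (adjusted p = 0.0501 to 0.126), and the value was -0.07 with library totals alone. Library totals alone called SLC1A5 lower with siRNA B (-0.46, adjusted p = 0.0177).

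SLC3A2, the heavy chain that SLC7A11 and SLC7A5 need at the membrane, rose with siRNA A (0.705, adjusted p = 0.00491), a call lost with library totals alone (0.34, adjusted p = 0.128). With siRNA B it was at 0.42 (adjusted p = 0.0765), and passed without control replicate 1 (0.54, adjusted p = 0.0372) and without siRNA B replicate 2 (0.62, adjusted p = 0.00778). SLC1A4, a neutral amino acid transporter, was the member that fell with siRNA A (-0.58, SE 0.139, adjusted p = 0.00443), from 98 to 113 reads in control to 33 to 56 reads, and was at -0.10 (adjusted p = 0.611) with siRNA B. SLC7A5 (LAT1), SLC7A1 (a cationic amino acid carrier) and SLC6A9 (a glycine carrier) did not pass the test, with log2 fold changes from -0.19 to 0.28. With library totals alone SLC7A5 (-0.51, adjusted p = 0.0114) and SLC6A9 (-0.50, adjusted p = 0.0416) were called lower with siRNA A. Without control replicate 3, SLC7A1 passed with siRNA A (0.38, adjusted p = 0.0435).

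The siRNAs were then compared with each other, which asks whether a member answered differently to the pair of siRNAs. Of the 29 members, 9 were higher and 5 lower in siRNA A than in siRNA B, where 17.6% of all genes were higher, 19.5% lower and 37.1% either. The median difference of the members was 0.14, against -0.01 for all genes, and the libraries of the siRNAs did not overlap for 15 members and for 47.6% of all genes. With library totals alone, 8 were higher and 6 lower, where 10.2% of all genes were higher and 27% lower. The largest differences were in the serine pathway: PHGDH was higher in siRNA A by 1.59 (SE 0.175, adjusted p = 6.9e-05) and PSAT1 by 1.46 (SE 0.161, adjusted p = 7e-05), while PSPH was lower, at -0.57 (SE 0.137, adjusted p = 0.00733). SHMT2 (0.67, adjusted p = 0.000521), ALDH18A1 (0.58, adjusted p = 0.0006) and ASNS (0.89, adjusted p = 0.00436) were also higher in siRNA A, and MTHFD2 was lower, at -0.38 (adjusted p = 0.0378).

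**Figure D3:**
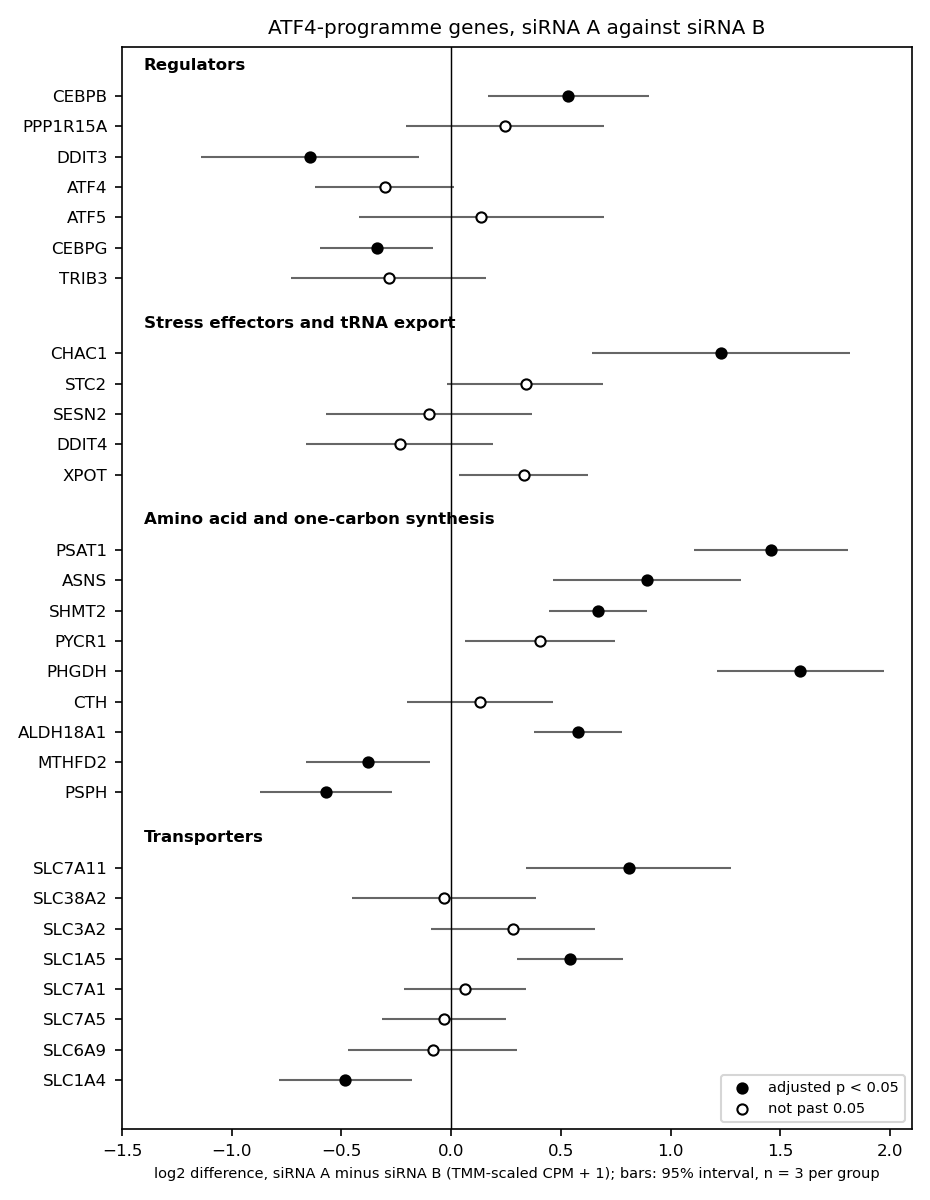
Log2 difference of siRNA A minus siRNA B (x axis, scaled CPM + 1) for the 29 tested genes by role, with 95% intervals as bars, n = 3 libraries a group, and filled points for adjusted p under 0.05. In the synthesis role 7 of 9 points are filled, from 1.59 for PHGDH to -0.57 for PSPH, and in the regulators 3 of 7.

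In the other roles fewer members differed between the siRNAs. CHAC1 (1.23, adjusted p = 0.00432), SLC7A11 (0.81, adjusted p = 0.0116), SLC1A5 (0.54, adjusted p = 0.00302) and CEBPB (0.53, adjusted p = 0.0263) were higher in siRNA A. DDIT3 (-0.64, adjusted p = 0.0436), CEBPG (-0.34, adjusted p = 0.0403) and SLC1A4 (-0.48, adjusted p = 0.0178) were lower in siRNA A. For ATF4 mRNA the difference was -0.30 (95% interval -0.62 to 0.015, adjusted p = 0.123), and it passed without siRNA B replicate 2 (-0.45, adjusted p = 0.0204). Library totals alone also called ATF4 lower in siRNA A (-0.46, adjusted p = 0.0341). So did a block on the replicate numbers (-0.30, adjusted p = 0.0316) and leaving out replicate 2 of every group (-0.42, adjusted p = 0.0326). In 12 of 16 alternative settings the ATF4 difference missed the threshold. SESN2 and SLC38A2 differed by -0.10 and -0.03, with intervals of -0.57 to 0.37 and -0.45 to 0.39, so these libraries do not show whether the siRNAs differed or acted alike on either gene.

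Of the 5 lower calls, 4 lay near the threshold, and leaving out 1 library could end them while their sizes changed less; that of PSPH held. DDIT3 and MTHFD2 both missed the threshold without any 1 of control replicate 3, siRNA A replicates 2 and 3 or siRNA B replicates 1 and 3 (-0.64 to -0.54, adjusted p = 0.0583 to 0.144, for DDIT3 and -0.42 to -0.29, adjusted p = 0.0555 to 0.155, for MTHFD2), and CEBPG did so without any 1 of those libraries or control replicate 2 (-0.37 to -0.23, adjusted p = 0.0565 to 0.162). SLC1A4 missed it without siRNA A replicate 3 or siRNA B replicate 1 (-0.43 and -0.37, adjusted p = 0.0605 and 0.083). CEBPB missed it without siRNA A replicates 1 or 2 or siRNA B replicate 2 (0.43 to 0.46, adjusted p = 0.0787 to 0.0933) and with library totals alone (0.38, adjusted p = 0.0942). With no filter on low genes DDIT3, MTHFD2, CEBPG and CEBPB missed it as well, at nearly the same sizes (adjusted p = 0.0529 to 0.102). PYCR1 and XPOT, at 0.41 and 0.33, passed it without siRNA A replicate 2 (0.51, adjusted p = 0.0389) and without siRNA B replicate 2 (0.48, adjusted p = 0.00912).

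The genes upstream of ATF4 were taken as a list of 17: the eIF2 kinases, eIF2, its exchange factor eIF2B and their regulators. With siRNA A 3 rose and 5 fell, and with siRNA B 3 rose and 6 fell (2 and 11, and 1 and 8, with library totals alone). Of all tested genes, 23.9% rose and 27.6% fell with siRNA A, and 15.6% and 18.3% did with siRNA B. With library totals alone these shares were 9.05% and 47%, and 6.9% and 29.7%. The mRNA of the amino acid sensing kinase GCN2, EIF2AK4, was at 102, 122 and 117 scaled CPM in control, 61.3, 70.6 and 67.3 in siRNA A and 67.1, 88.6 and 71.7 in siRNA B. It was lower in all siRNA libraries, at -0.76 (adjusted p = 0.000357) and -0.58 (adjusted p = 0.00363). The haem-regulated kinase EIF2AK1 also fell, at -0.24 (adjusted p = 0.0355) and -0.64 (adjusted p = 0.000259). PERK (EIF2AK3, -0.27 and -0.53) and PKR (EIF2AK2, -0.03 and -0.39) fell with siRNA B. EIF2S3, the gamma subunit of eIF2, rose by 1.45 (adjusted p = 2e-06) and 0.92 (adjusted p = 5.1e-05), from 182 to 207 scaled CPM in control to 505 to 575 in siRNA A and 359.6 to 389.8 in siRNA B.

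A second list held 21 further ATF4 targets outside the 33, of which 20 were tested. With siRNA A 12 rose and 3 fell, and with siRNA B 7 rose and 3 fell (5 and 4, and 3 and 5, with library totals alone). Among all tested genes the shares were 23.9% and 27.6%, and 15.6% and 18.3% (9.05% and 47%, and 6.9% and 29.7%, with library totals alone). ATF3, a stress-induced partner factor, rose from 27.2, 13.4 and 22.4 scaled CPM in control to 95.6, 203.5 and 92.1 in siRNA A and to 61.05, 48.2 and 49.5 in siRNA B. Its log2 fold change was 2.53 (adjusted p = 4.4e-05) and 1.34 (adjusted p = 0.00456). GDF15, a secreted stress hormone, was at 45.3, 39.6 and 41.1 scaled CPM in control, 71.4, 104 and 59.8 in siRNA A and 143, 262 and 157 in siRNA B. It rose by 0.85 (adjusted p = 0.00827) and 2.08 (adjusted p = 6.07e-05), and siRNA A was lower than siRNA B by the test of the difference (-1.23, adjusted p = 0.00161), where for ATF3 it was higher (1.19, adjusted p = 0.00814). The GDF15 value for siRNA A was 0.49 when library totals alone were used (adjusted p = 0.0515).

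The cytosolic tRNA synthetases in that list did not move as 1 group. YARS1 (0.85 and 0.30), GARS1 (0.815 and 0.33), MARS1 (0.70 and 0.35) and TARS1 (0.53 and 0.41) rose with both siRNAs. The 4 siRNA B calls were lost when library totals alone were used (0.09 to 0.20, adjusted p = 0.248 to 0.534), as was that of TARS1 with siRNA A (0.165, adjusted p = 0.283). AARS1 fell with siRNA A (-0.52, adjusted p = 0.000953) and rose with siRNA B (0.55, adjusted p = 0.00127), and WARS1 fell with both (-0.33 and -0.94). MTHFD1L, another mitochondrial folate enzyme, rose with siRNA A (0.69, adjusted p = 0.00167) and fell with siRNA B (-0.47, adjusted p = 0.0223), the same signs as SHMT2, and with library totals alone the rise missed the threshold (0.325, adjusted p = 0.0856). Of 17 mitochondrial tRNA synthetases, which are not ATF4 targets as a class, 1 rose and 6 fell with siRNA A and none rose and 4 fell with siRNA B (0 and 12, and 0 and 9, with library totals alone). All tested genes rose and fell at shares of 23.9% and 27.6%, and 15.6% and 18.3% (9.05% and 47%, and 6.9% and 29.7%, with library totals alone).

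A list of 13 chaperone and unfolded protein response genes of the endoplasmic reticulum was set beside these, since PERK also feeds ATF4. With siRNA A 4 of 13 rose and 3 fell, and with siRNA B 2 rose and 2 fell (2 and 5, and 1 and 5, with library totals alone). The shares of all tested genes were 23.9% and 27.6%, and 15.6% and 18.3% (9.05% and 47%, and 6.9% and 29.7%, with library totals alone). DNAJB9 (1.21 and 1.03) and HSPA5, the chaperone BiP (0.85 and 0.54), rose with both siRNAs, and with library totals alone HSPA5 with siRNA B missed the threshold (0.32, adjusted p = 0.198). CRELD2, a secreted factor induced by endoplasmic reticulum stress, fell with both (-1.92 and -2.15). The median log2 fold change of the list was 0.25 with siRNA A and -0.12 with siRNA B.

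The members also moved together within groups. Replicate 2 was the lowest of its group for 19 of 29 members in control, 16 in siRNA A and 21 in siRNA B, where it was lowest for 34.4%, 36.3% and 42.8% of all tested genes. The median deviation of the members from the group mean was -0.17, -0.10 and -0.21 in the replicate 2 libraries, against values within 0.01 of 0 for all genes. Replicate 1 was the highest for 19, 15 and 22 members, and for 36.6%, 32.8% and 25.5% of all genes. The replicate 2 libraries had the lowest read totals of their groups, and the part of depth in this shift was not tested. Without replicate 2 of every group, an alternative added after seeing the data, 16 members were higher and 1 lower with siRNA A. With siRNA B 12 were higher and 2 lower, and between the siRNAs 9 were higher and 5 lower. Of the 13893 tested genes, 3033 were higher and 3451 lower with siRNA A in this setting. The counts were 1835 and 2152 with siRNA B, and 2225 and 2484 between the siRNAs.

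**Figure D4:**
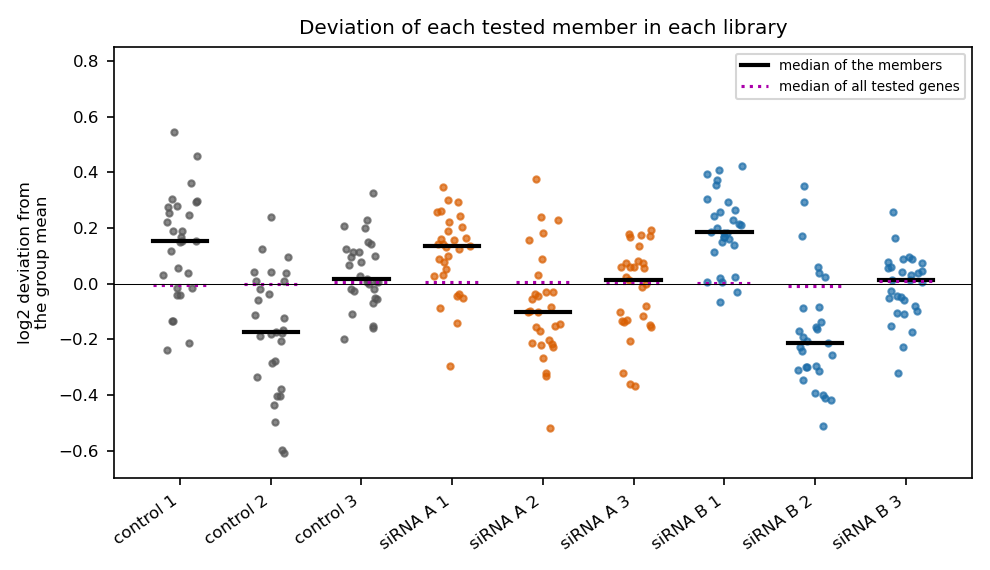
Log2 deviation of each of the 29 tested genes from its group mean (y axis) in each of the 9 libraries, with the median of the members as a black line and that of all tested genes as a dotted line. The replicate 2 medians lie at -0.17, -0.10 and -0.21 and the replicate 1 medians at 0.15, 0.13 and 0.19, while the medians of all genes lie near 0.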

How the data were processed

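RNA from 9 libraries (3 groups of 3) was, per the labels, oligo-dT purified and sequenced from 1 end for 50 bases (HiSeq), then processed with TopHat2 and HTSeq on GRCh37 (hg19), as the submitters' processing notes list them. The authors deposited CPM in 1 table: gene reads over library totals. All values (100%, within 0.01 of a read) were whole reads, which gave the totals.

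Of 15354 identifiers, 14871 matched a symbol in the GENCODE annotation lifted to GRCh37. Those reaching 1 CPM in 3 or more libraries (13893, or 90.5% of rows) were tested with limma 3.58.1 (R 4.3.3) on log2(CPM + 1) after TMM scaling (edgeR 4.0.16), in 1 model with a mean per group and a trend in the variance, at an adjusted p of 0.05. Intervals and floors of 3 reads cover counting error or library spread only. edgeR's quasi-likelihood test and DESeq2 1.42.0 were run on the recovered reads as alternatives, beside library totals alone, a pseudocount of 0.1, no filter, a replicate block, and leaving out each library. The limma fit was also run on simulated counts with the same dispersion for all genes and few changes, balanced up and down. Those counts held no shift of all genes, so that run could not check the scaling. Plots used Python 3.11.15 with matplotlib 3.10.9.

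Libraries of a group correlated with r from 0.983 to 0.994 across genes, and no pair agreed within sampling noise (chi-square of at least 12.2 per degree of freedom). Deviations of same-numbered control and siRNA A libraries from their group means correlated at 0.65, 0.41 and 0.13. Numbers 1 and 2 thus pair more closely than 3, and no label says why.

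The members and gene lists were chosen with earlier results of these data known. Values of every library are given for members called with both siRNAs, those called between siRNAs with opposite signs against control, the 4 largest changes in each comparison, and ATF4. Promoters shown are those of the largest changes and ATF4, with ASNS and CHAC1 added after their motif was seen. Genes most like ATF4 in pattern, planned as a description, were not ranked, since the libraries fall into separate groups.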

Additional observations from a re-analysis of the deposited data

Results flagged for a closer look

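For 7 members siRNA A and siRNA B lay on opposite sides of control and differed from each other past the threshold in limma's test of siRNA A against siRNA B. The log2 difference, siRNA A minus siRNA B, was 1.59 for PHGDH, 1.46 for PSAT1, 0.67 for SHMT2, 0.58 for ALDH18A1 and 0.54 for SLC1A5, and it was -0.57 for PSPH and -0.38 for MTHFD2. Of the 7, 6 are enzymes of serine, one-carbon or proline synthesis and SLC1A5 is a glutamine exchanger. Against control, SHMT2 passed the test with each siRNA, PSAT1 and SLC1A5 with siRNA A, PHGDH, PSPH and ALDH18A1 with siRNA B, and MTHFD2 with neither. The siRNAs share their control libraries, so where control lies between them is 1 measurement for each gene and not a pair. With library totals alone, PHGDH, SHMT2, SLC1A5 and ALDH18A1 were below control with siRNA A too, at -0.22, -0.04, -0.07 and -0.34, so that their opposite signs depend on the scaling, while the difference between the siRNAs stayed past the threshold.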

How the results depend on the processing

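Of the 87 member values, 87 kept their side of the threshold and direction with edgeR and with a pseudocount of 0.1, and 85 with DESeq2, which also called SLC3A2 with siRNA B and PYCR1 between the siRNAs. Library totals alone moved the counts against control to 10 higher and 6 lower for siRNA A and 5 lower for siRNA B. The lower calls gained were PSPH (-0.50), MTHFD2 (-0.49), SLC7A5 (-0.51), SLC6A9 (-0.50) and ALDH18A1 (-0.34) with siRNA A, and PSAT1 (-0.52) and SLC1A5 (-0.46) with siRNA B. The same setting turned the sign of TRIB3 (-0.196), PHGDH (-0.219), SHMT2 (-0.0424), SLC7A1 (-0.0883), SLC1A5 (-0.0695), ATF5 (-0.0014), CEBPG (-0.16), CTH (-0.25), ALDH18A1 (-0.34) and PYCR1 (-0.0501) for siRNA A, of ASNS (-0.0264) and XPOT (-0.0173) for siRNA B, and of SLC7A1 (-0.0922), ATF5 (-0.0143) and CTH (-0.0067) between the siRNAs, by the shift of all genes that the scaling removes. With no filter 6 calls missed the threshold at nearly the same sizes (DDIT4 with siRNA A, PSPH with siRNA B, and DDIT3, MTHFD2, CEBPB and CEBPG between the siRNAs), and 2 members in place of 5 were lower in siRNA A than in siRNA B; the cause was not tested.

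Leaving out 1 library gave 13 to 17 members higher and 1 lower for siRNA A. For siRNA B it gave 10 to 14 higher and 2 to 3 lower, and between the siRNAs 8 to 9 and 1 to 6. The lowest count between the siRNAs, 1, came without siRNA A replicate 3 and without siRNA B replicate 1. Of the 13893 tested genes, 2757 to 3592 were higher and 3225 to 4087 lower for siRNA A in these fits. For siRNA B 1433 to 2295 were higher and 1996 to 2643 lower, and between the siRNAs 1971 to 2540 and 2038 to 2649. Signs turned in these ranges: CTH -0.0198 to 0.244 and ALDH18A1 -0.0062 to 0.0656 for siRNA A; ASNS -0.0231 to 0.382, SLC7A5 -0.228 to 0.0444, CTH -0.16 to 0.11, PYCR1 -0.1885 to 0.085 and SLC6A9 -0.247 to 0.026 for siRNA B; SESN2 -0.257 to 0.0822, SLC7A5 -0.183 to 0.0876, SLC7A1 -0.0327 to 0.136, SLC38A2 -0.22 to 0.14, ATF5 -0.12 to 0.40 and SLC6A9 -0.174 to 0.0526 between the siRNAs. None of these was a call. Without replicate 2 of every group, CTH with siRNA A (-0.0526) and SLC7A5 (0.0625) and PYCR1 (0.089) with siRNA B turned.

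The replicate block gave 18 higher and 1 lower for siRNA A, 14 and 4 for siRNA B, and 11 and 7 between the siRNAs. With the block, 3820 of the 13893 tested genes were higher and 4273 lower for siRNA A. The counts were 2766 and 3025 for siRNA B, and 2985 and 3244 between the siRNAs. The block added 10 member calls and lost none. Calls over all genes grew as well, from 7145 to 8093 for siRNA A. They grew from 4719 to 5791 for siRNA B and from 5155 to 6229 between the siRNAs. Deviations of same-numbered libraries correlated at 0.17, 0.45 and -0.39 between control and siRNA B and at 0.20, 0.44 and 0.02 between the siRNAs. Number 2 thus paired there about as closely as between control and siRNA A (0.41), and numbers 1 and 3 paired less closely. Depth limits CHAC1, CTH, SLC1A4 and SLC6A9, which had 33 to 277 reads per library.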
